A study of Oryctolagus cuniculus with 20 samples.

Results

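The 5 genes described here encode the surface proteins with which vessel endothelium captures circulating leukocytes: SELE (E-selectin, ENSOCUG00000017438), SELP (P-selectin, ENSOCUG00000016477), ICAM1 (ENSOCUG00000029644), VCAM1 (ENSOCUG00000011697) and ACKR1 (the atypical chemokine receptor also called DARC, ENSOCUG00000024046). They were chosen by gene name from 23669 genes in RNA sequencing of rabbit (Oryctolagus cuniculus) vessels. All 5 passed the filter of at least 1 FPKM in at least 4 libraries, as did 8657 genes in all. FPKM is the number of fragments per kilobase of transcript, scaled to the fragments mapped in the library, so levels of different genes can be set side by side per length.

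The study moved a segment of common carotid artery into a vein and sequenced the graft on day 14 or day 30 after surgery. The opposite carotid artery, which was not operated on, served as the control of the same day, and unoperated vein (external jugular) was the remaining group. Each of the 5 groups held 4 libraries, 20 in all, from rabbits with no genotype, strain or age given in the labels. The controls of days 14 and 30 came from rabbits that also carried a graft, so they are not arteries of untouched animals. All samples, vein included, bear the treatment label of transplantation, and HASMC is given as their cell line, which goes against the rabbit tissue in the rest of the labels. The labels call the libraries biological replicates without saying that each came from a separate animal, so p-values measure the spread between these samples.

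Leukocytes leave the blood in steps. The selectins catch passing cells and let them roll, chemokines presented on the endothelial surface activate leukocyte integrins, and ICAM1 and VCAM1 bind those integrins and hold the cells firmly. SELE is made by endothelium after stimulation with cytokines such as TNF or interleukin 1, SELP is stored in endothelial granules and in platelets, ICAM1 and VCAM1 are raised by the same cytokines and are also made by other cells of the vessel wall, and ACKR1 binds chemokines without classical signalling and is known as a protein of venules and red cells.

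The libraries were unequal in ways that touch these genes. Control day 30 replicates 2 and 3 stood apart from replicates 1 and 4 of their group. They held the 2 highest values of all 20 libraries for SELE, SELP, ICAM1 and VCAM1, an arrangement found in 1.93% of the 8657 genes. The limma comparisons are given with and without them. They were left out after these values were seen, so the fits without them are no independent test of these 4 genes. The 4 controls of day 14 were nearly alike, with a median SD of log2 values of 0.0732 over 1265 well expressed genes, against 0.135 to 0.324 in the other groups. PECAM1, a defining endothelial gene, was listed at 0 in all 8 control libraries and stayed under the filter, whereas CDH5 (VE-cadherin) and VWF were present in every library. Smooth muscle markers summed to between 6650 and 9540 FPKM in controls, 663 to 1860 FPKM in grafts and 4020 to 4410 FPKM in vein. Only FPKM were used, so the depth per library is unknown, and a value listed at 0 may be an estimate that failed.

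**Figure D1:**
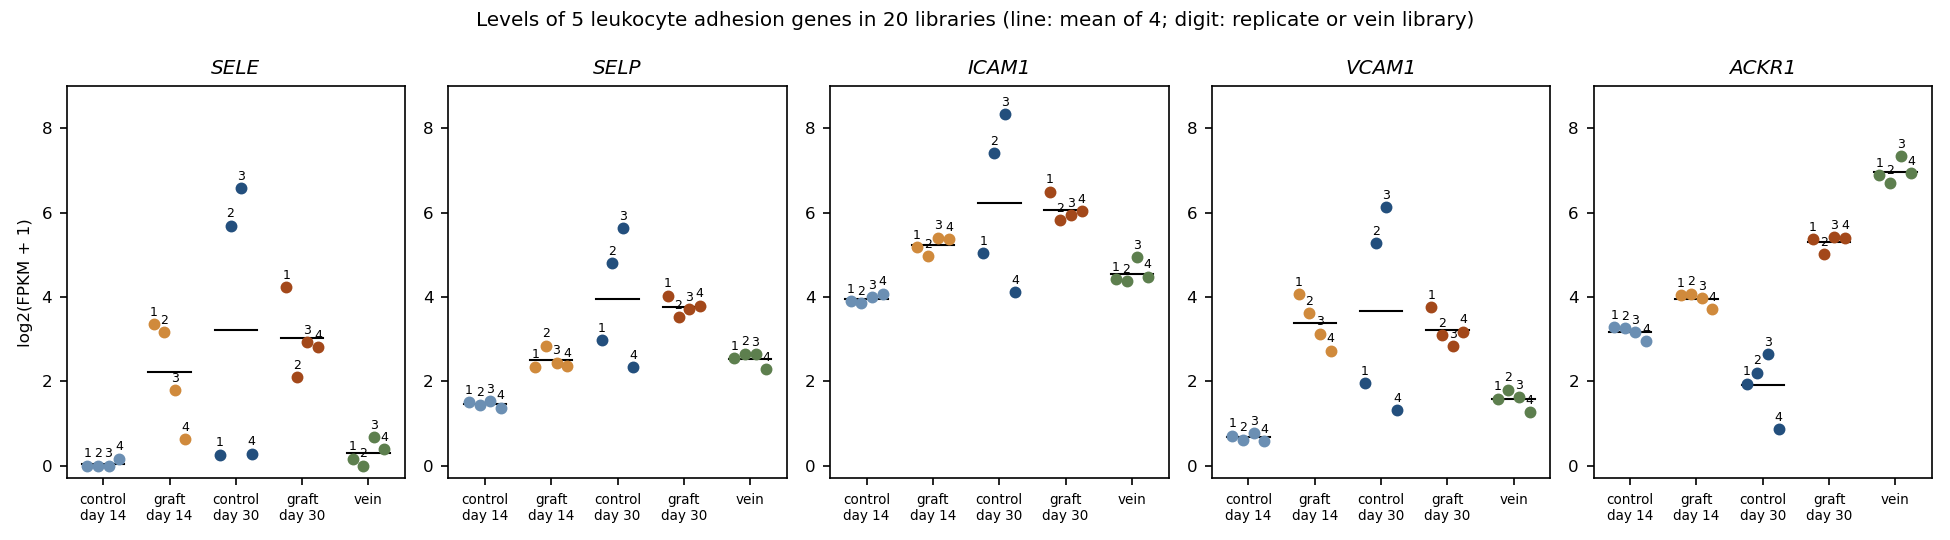
Each panel plots 1 gene, with log2(FPKM + 1) on the vertical axis and the 5 groups on the horizontal axis; points are libraries, digits their numbers and lines the means of 4 libraries. The 4 control day 30 points of SELE, SELP, ICAM1 and VCAM1 split into a high and a low pair, while those of ACKR1 lie below all other groups.

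SELE was close to absent from unoperated artery on day 14 and from vein, and present in grafts. Replicates 1 to 4 of control day 14 were listed at 0, 0, 0 and 0.12 FPKM, and the 4 vein libraries at 0.12, 0, 0.59 and 0.31 FPKM. Grafts held 9.24, 7.95, 2.44 and 0.54 FPKM on day 14 and 17.73, 3.26, 6.62 and 6.04 FPKM on day 30. Every graft of day 14 therefore lay above every control of that day, but the lowest graft lay under the highest vein library. Control day 30 replicates 1 and 4 held 0.2 and 0.22 FPKM, and replicates 2 and 3 held 50.48 and 94.97 FPKM. In those 2 libraries SELE exceeded the highest graft, at 17.73 FPKM, and in the other 2 it lay under the lowest graft of either day. By mean the order ran from control day 14 (0.03 ± 0.06 FPKM, SD, n = 4) through vein (0.255 ± 0.257), graft day 14 (5.04 ± 4.21) and graft day 30 (8.41 ± 6.38) to control day 30 (36.5 ± 45.6). Neighbouring groups overlapped at each step of that order.

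SELP was found in every library. Control day 14 held 1.85, 1.72, 1.88 and 1.6 FPKM, graft day 14 held 4.1, 6.18, 4.43 and 4.18 FPKM, and graft day 30 held 15.37, 10.43, 12.08 and 12.89 FPKM. These 3 groups did not overlap. Vein, at 4.83, 5.29, 5.26 and 3.86 FPKM, overlapped graft day 14. Control day 30 held 6.9, 26.84, 48.75 and 4.06 FPKM, so that replicates 1 and 4 lay above all controls of day 14 and under all grafts of day 30. Markers of platelets, which also hold SELP message, summed to 14.7 to 16.6 FPKM in control day 14 and 5.99 to 9.47 FPKM in graft day 14. Their part in the SELP levels was not tested.

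ICAM1 was the most abundant of SELE, SELP, ICAM1 and VCAM1 in every group. Control day 14 held 13.99, 13.49, 15.02 and 15.92 FPKM and vein held 20.44, 19.72, 29.75 and 21.29 FPKM. Grafts held 35.15, 30.32, 41.32 and 40.26 FPKM on day 14 and 89, 55.37, 60.34 and 64.14 FPKM on day 30. These 4 groups were separate from each other, in the order control day 14, vein, graft day 14, graft day 30, a separation seen for 2.13% of all genes tested. Control day 30 broke the order, with 31.69, 168.43, 320.05 and 16.21 FPKM. The value of replicate 3 was the highest of any member in any library.

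VCAM1 lay under 1 FPKM in every control of day 14 and over 5 FPKM in every graft. Control day 14 held 0.64, 0.53, 0.71 and 0.5 FPKM, and graft day 14 held 15.81, 11.21, 7.76 and 5.63 FPKM. Grafts of day 30 covered nearly the same range, with 12.58, 7.52, 6.14 and 8.05 FPKM. Vein, at 2, 2.48, 2.08 and 1.41 FPKM, lay above all controls of day 14 and under all grafts. Control day 30 held 2.89, 37.85, 68.94 and 1.49 FPKM, with replicates 1 and 4 near vein and replicates 2 and 3 above all grafts. On day 14 SELE and VCAM1 ranked the 4 grafts alike, with replicate 1 highest and replicate 4 lowest, while ICAM1 was highest in replicate 3. On day 30 graft replicate 1 held the most SELE, SELP, ICAM1 and VCAM1 but not the most ACKR1.

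ACKR1 followed another order. Vein held by far the most, with 117.77, 103.79, 160.51 and 121.71 FPKM. Grafts held 15.41, 15.87, 14.72 and 12.08 FPKM on day 14 and 40.47, 31.14, 41.57 and 41.33 FPKM on day 30. Controls held 8.71, 8.6, 7.96 and 6.7 FPKM on day 14 and only 2.84, 3.6, 5.26 and 0.83 FPKM on day 30. The 5 groups did not overlap at any step of the order control day 30, control day 14, graft day 14, graft day 30, vein. Such a complete separation was found for 28 of 8657 genes, or 0.323%. In the 2 control libraries where the other members were highest, ACKR1 ranked 17 and 18 of 20. Markers of red cells, which carry ACKR1 in humans, summed to 761 to 804 FPKM in control day 14 and 669 to 3970 FPKM in graft day 14. On day 30 the sums were 622 to 4760 FPKM in controls and 1990 to 4740 FPKM in grafts. In vein libraries 1 to 4 they were 8340, 2700, 4370 and 21300 FPKM. The part of red cells in these levels was not tested.

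Grafts were first compared with the controls of the same day. At day 14 limma's moderated test on log2(FPKM + 1), with Benjamini-Hochberg adjustment over 8657 genes and a threshold of 0.05, called 2 of the 5 members, both higher in the graft, where 36.5% of all genes were called higher. The scale understates the change of low genes. VCAM1 rose from a mean of 0.595 ± 0.0975 FPKM in controls to one of 10.1 ± 4.45 FPKM in grafts (log2 change 2.71, SE 0.74, adjusted p = 0.00476). ACKR1 averaged 7.99 ± 0.923 FPKM in controls and rose to 14.5 ± 1.69 FPKM in grafts (log2 change 0.79, SE 0.26, adjusted p = 0.0152). SELE (log2 change 2.19, SE 1.11, adjusted p = 0.106), SELP (1.04, SE 0.47, adjusted p = 0.0722) and ICAM1 (1.27, SE 0.60, adjusted p = 0.0844) missed the threshold. In each of the 5, all 4 grafts lay above all 4 controls, as did 33.9% of all genes, and the two-sided exact permutation p was 0.0286, the smallest that 4 against 4 libraries allow.

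The estimate of spread in that fit is shared by all 5 groups, and control day 30 replicates 2 and 3 enter it. Without these 2 libraries the same log2 changes had smaller errors and all 5 members were called higher at day 14, where 36.8% of genes were. Adjusted p was then 0.00168 for SELE, 4.26e-05 for SELP and 4.27e-05 for ICAM1. Leaving out control day 30 replicate 3 or 4 alone gave 4 calls, and leaving out any other single library gave 2 or 3. A fit to the control and graft libraries of day 14 alone also called all 5. For that fit and those without a single library, the share of all genes called is not given here, so these counts have no background beside them. With the nearly identical controls of day 14 counted as 1 sample, the calls of VCAM1 and ACKR1 were lost, and far fewer of all genes were called as well. The call of ACKR1 was also lost with median-of-ratios scaling (log2 change 0.51, adjusted p = 0.126), a scaling that moved the median of all genes by -0.22 in this comparison. Over all alternatives the adjusted p ran from 3.31e-07 to 0.201 for VCAM1 and from 6.43e-05 to 0.347 for ACKR1.

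At day 30 the comparison turned on the 2 control libraries. With all 20 libraries limma called 1 of the 5 members, where 26.0% of genes were called higher in grafts. ACKR1 rose from 3.13 ± 1.84 FPKM in controls to 38.6 ± 5.01 FPKM in grafts (log2 change 3.38, SE 0.26, adjusted p = 1.82e-08, exact permutation p = 0.0286), with groups that did not overlap and a graft level above the controls, as in 23.3% of genes. The log2 changes of the other members were between -0.45 (VCAM1, adjusted p = 0.673) and -0.15 (ICAM1, adjusted p = 0.875), and in each of them grafts lay inside the range of the controls. Their 95% intervals were wide: that of ICAM1 ran from -1.41 to 1.11. Without control day 30 replicates 2 and 3 all 5 members were called higher in the grafts, where 21.7% of genes were. The log2 changes were then 2.74 for SELE (SE 0.62, adjusted p = 0.00293), 1.10 for SELP (SE 0.19, adjusted p = 0.000408), 1.5 for ICAM1 (SE 0.24, adjusted p = 0.000159) and 1.58 for VCAM1 (SE 0.31, adjusted p = 0.00118). That fit leaves 2 controls on day 30. The libraries left out were chosen after the data were seen and held the highest values of SELE, SELP, ICAM1 and VCAM1. Leaving them out lowers the control level and the spread of these genes, so these p-values are no independent test of them. The change of ACKR1 was 3.89 (SE 0.24, adjusted p = 1.55e-08).

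**Figure D2:**
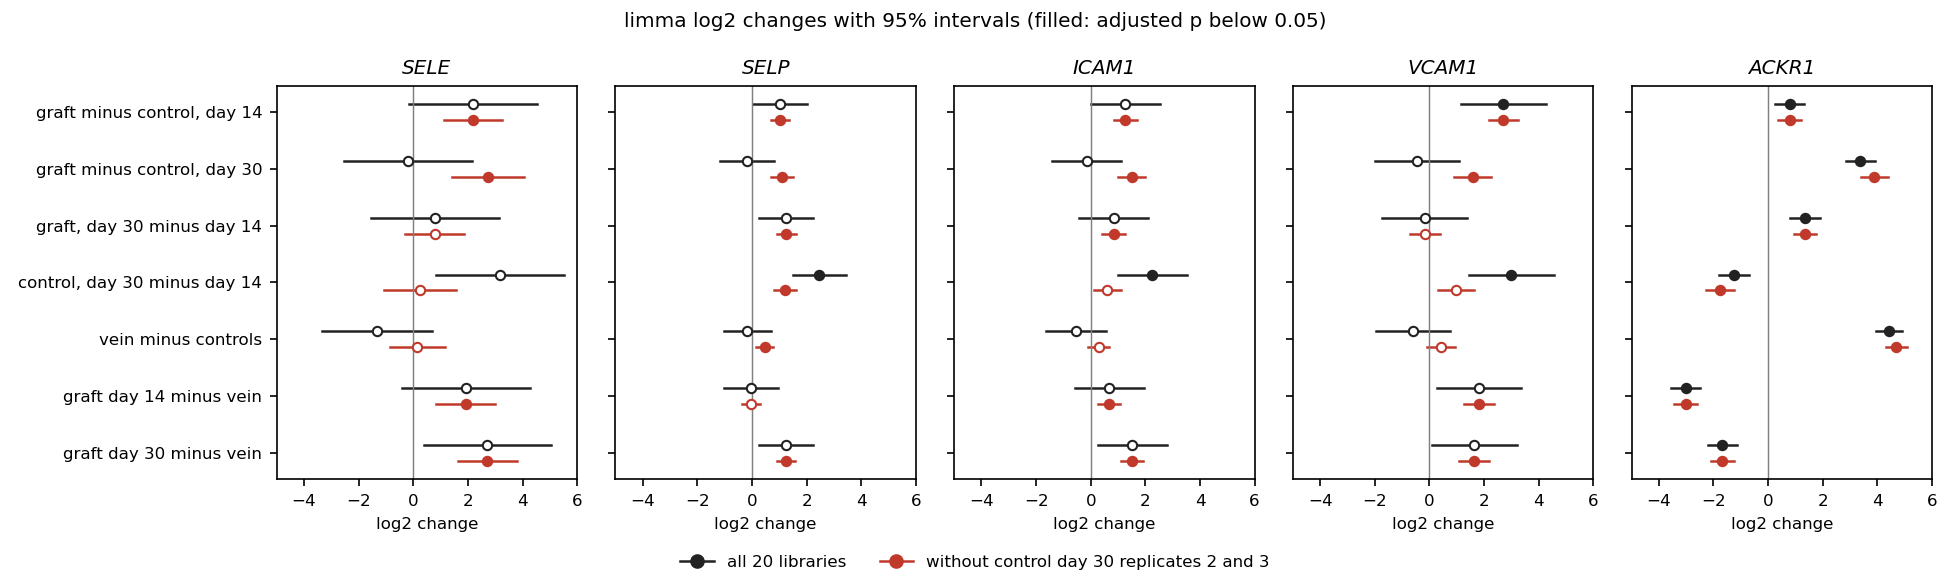
Points are limma log2 changes of each member in 7 comparisons, lines their 95% intervals and filled points those with an adjusted p below 0.05, with all 20 libraries in black and without control day 30 replicates 2 and 3 in red. Leaving out these 2 libraries moves the day 30 changes of SELE, SELP, ICAM1 and VCAM1 from just below 0 to between 1.1 and 2.74, while those of ACKR1 stay on their side of 0 in all 7 comparisons.

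Whether the graft effect differed between the days was tested as the day 30 difference minus the day 14 difference. Limma called 1 of 5 members, where 5.38% of genes were called with a larger effect on day 30. The effect on ACKR1 was larger on day 30 by 2.60 on the log2 scale (SE 0.36, adjusted p = 0.000258). The difference was -3.17 for VCAM1 (adjusted p = 0.0538), which became -1.13 without the 2 control libraries (adjusted p = 0.0825). For SELE, SELP and ICAM1 it lay between -2.38 and -1.21 with all libraries and between 0.07 and 0.55 without the 2, and passed in neither fit. A single library decided this count: 4 members were called without control day 30 replicate 4 and 2 without replicate 1. The share of all genes called without these libraries is not given here.

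Between days 14 and 30, grafts held more ACKR1. The log2 change was 1.35 (SE 0.26, adjusted p = 0.00191), and ACKR1 was the 1 member called, where 8.01% of genes were called higher on day 30. SELP (1.26, adjusted p = 0.0761) and ICAM1 (0.84) also had separate groups with an exact permutation p of 0.0286, and 7.29% of genes had all grafts of day 30 above those of day 14. Both were called without control day 30 replicates 2 and 3 (adjusted p = 0.000102 and 0.00837), where 7.99% of genes were, and a fit to the 8 graft libraries alone also called 3 of 5. Without control day 30 replicate 3 or 4 alone, 2 members were called. For the fit to grafts alone and the fits without a single library, the share of all genes called is not given here. The log2 change was -0.17 for VCAM1 (95% interval -1.72 to 1.39) and 0.79 for SELE (interval -1.55 to 3.12).

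The controls themselves differed between the days. With all libraries, limma called 4 of 5 members, where 10.7% of genes were called. SELP (2.47, adjusted p = 0.00248), ICAM1 (2.26, adjusted p = 0.0213) and VCAM1 (3.00, adjusted p = 0.0137) were higher on day 30, and ACKR1 was lower (log2 change -1.25, SE 0.26, adjusted p = 0.00418). A fit to the 8 control libraries alone called none of the 5, and the share of all genes it called is not given here. Without replicates 2 and 3, where 6.47% of genes were called, the calls of SELP (1.2, adjusted p = 0.00178) and ACKR1 (-1.76, adjusted p = 0.000385) held, and those of ICAM1 (0.61, adjusted p = 0.155) and VCAM1 (0.97, adjusted p = 0.0842) did not. Leaving out replicate 2 alone was enough to end both of these calls (adjusted p = 0.08 and 0.0547), and the call of ICAM1 also ended without replicate 3 (adjusted p = 0.0545) or without control day 14 replicate 1 or 2 (0.0526 and 0.0543). Over all alternatives of this comparison the adjusted p ran from 2.36e-05 to 1.0 for ICAM1, 1.02e-05 to 1.0 for VCAM1, 1.44e-06 to 0.953 for SELP and 0.000157 to 0.897 for ACKR1. All 4 libraries of day 30 lay on 1 side of all 4 of day 14 in each of the 5 members, which held for 22.8% of all genes. Day of collection and the library differences of control day 30 cannot be told apart here.

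Unoperated vein differed from unoperated artery in ACKR1. Against both control groups together, its log2 change was 4.43 (SE 0.22, adjusted p = 6.41e-11), with a two-sided exact permutation p of 0.00404, the smallest that 4 against 8 libraries allow. It was the 1 member called, where 25.2% of genes were called higher in vein, and its vein libraries lay above all controls, as in 16.2% of genes. The other members lay between -1.32 (SELE) and -0.17 (SELP) with all libraries and between 0.15 and 0.47 without the 2 control libraries, where SELP passed as well (0.47, SE 0.15, adjusted p = 0.0223) and 22.2% of genes were called higher. The exact permutation test on those libraries did not call SELP (p = 0.114), since control day 30 replicate 1, at 6.9 FPKM, lay above all vein libraries.

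Grafts had less ACKR1 than vein on both days, with log2 changes of -3.02 on day 14 (SE 0.26, adjusted p = 5.9e-08) and -1.67 on day 30 (adjusted p = 7.91e-05). On either day it was the 1 member called, where 17.5% of genes were called lower than in vein on day 14 and 14.2% on day 30. SELE, SELP, ICAM1 and VCAM1 all lay above vein in the grafts of day 30, with no overlap (34.3% of genes had none, in either direction), by 2.71, 1.23, 1.51 and 1.65 on the log2 scale. These 4 missed the threshold with all libraries (adjusted p from 0.0521 to 0.0981) and passed it in a fit to the 2 groups alone and without the 2 control libraries, where 33.4% of genes were called. Leaving out control day 30 replicate 3 or 4 alone also gave 5 calls, replicate 1 gave 4 and replicate 2 gave 2. For these fits and the fit to the 2 groups alone, the share of all genes called is not given here. On day 14 ICAM1 and VCAM1 lay above all vein libraries, where 36.9% of genes had separate groups, and both passed without the 2 control libraries, as did SELE (4 of 5 called, against 43.3% of genes). VCAM1 was called whichever 1 of the control day 30 libraries was left out (adjusted p = 0.0173 to 0.0429), which made 2 calls. SELP did not differ beyond its spread (log2 change -0.03, 95% interval -1.02 to 0.96).

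Markers of endothelium also moved with the groups. CDH5, which encodes the cadherin of endothelial junctions, averaged 9.74 ± 0.539 FPKM in controls and 58.9 ± 20.3 FPKM in grafts on day 14. On day 30 its means were 18.4 ± 7.85 and 78.9 ± 7.69 FPKM, and vein held 33.6 ± 2.14 FPKM. In bulk tissue, fewer endothelial cells and less message per endothelial cell cannot be told apart. Each member was therefore also expressed as its log2(FPKM + 1) minus the mean of CDH5 and TIE1, an endothelial receptor. On this scale 0 of 5 members differed between graft and control on day 14 by the exact permutation test, which called 42.8% of genes. The differences were 0.45 for SELE, -0.70 for SELP, -0.47 for ICAM1, 0.98 for VCAM1 and -0.95 for ACKR1, with p from 0.0857 to 0.486. TIE1 was a weak reference, since graft day 14 replicates 1 to 4 held 9.27, 11.22, 0.11 and 0 FPKM of it.

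Set against CDH5 alone, a choice made after the values were seen, 4 of 5 members differed on day 14, where 85.7% of all genes did. SELP (-1.38), ICAM1 (-1.15) and ACKR1 (-1.63) were then lower in grafts and VCAM1 was higher (0.30), each with an exact permutation p of 0.0286. SELE differed by -0.22 (exact permutation p = 0.714). The rise of CDH5 between control and graft of day 14, by 2.41 on the log2 scale (SE 0.24, adjusted p = 1.99e-07), was larger than the difference of every member but VCAM1 on the log2(FPKM + 1) scale. At day 30, relative to CDH5 and TIE1, SELP was lower in grafts, with a difference of -2.23, and ACKR1 was higher by 1.33 (both exact permutation p = 0.0286), on a scale where 85.9% of all genes differed. Against control day 30 replicates 1 and 4 alone these differences were -1.07 and 1.72, with no test. In vein, ACKR1 was higher than in controls by 2.84 relative to the same pair of genes, and the differences of the other 4 members were between -2.9 and -1.76, where 89.8% of genes differed. Without control day 30 replicates 2 and 3 the difference of ACKR1 was 2.72 and those of the others lay between -1.48 and -1. All 5 were called there too, but the share of all genes called on those libraries is not given here. Between the grafts of days 14 and 30 no member differed on this scale, where 1.74% of genes did. Controls of day 30 held more SELP (by 2.22) and VCAM1 (by 2.75) and less ACKR1 (a difference of -1.5) than those of day 14 on it, each with an exact permutation p of 0.0286, where 15.0% of genes differed. With replicates 1 and 4 alone on day 30 the differences were 1.07, 0.84 and -1.89, with no test. Against vein, the grafts of day 14 were higher in SELE and VCAM1 and lower in ACKR1, where 7.32% of genes differed, and those of day 30 were also higher in ICAM1, where 33.9% did. VWF, the endothelial clotting factor, averaged 441 ± 47.4 FPKM in vein and 7.02 ± 0.224 to 132 ± 13.9 FPKM in the other groups. Set against VWF in place of CDH5 and TIE1, the higher ACKR1 of vein and of day 30 grafts was lost. The difference in ACKR1 was then -0.97 between vein and controls (exact permutation p = 0.162) and 0.08 between graft and control on day 30 (exact permutation p = 0.857). Between graft and vein it was -0.2 on day 14 (exact permutation p = 0.371) and 0.06 on day 30 (exact permutation p = 0.514), and the groups overlapped in all 4 comparisons. On day 14 ACKR1 was lower in grafts than in controls on this scale, with a difference of -2.17 (exact permutation p = 0.0286). VWF itself rose by 2.96 (SE 0.22) in that comparison, so any gene that rose by less is lower on this scale. The share of all genes that differed relative to VWF is not given here.

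In control day 30 replicates 2 and 3, SELE, SELP, ICAM1 and VCAM1 exceeded the higher of replicates 1 and 4 by different factors. In replicate 3 the factor was 432 for SELE, 23.9 for VCAM1, 10.1 for ICAM1 and 7.07 for SELP. Replicate 3 exceeded replicate 2 by a nearly constant factor, 1.88 for SELE, 1.82 for SELP, 1.90 for ICAM1 and 1.82 for VCAM1. Over 2962 genes replicate 2 was close to a weighted mean of its group, with weights of 0.5 for replicate 3, 0.15 for replicate 1 and 0.35 for replicate 4 and a median absolute log2 difference of 0.0882. That mean gives 47.6 FPKM of SELE, 26.8 of SELP, 170 of ICAM1, 35.4 of VCAM1 and 3.35 of ACKR1, against 50.48, 26.84, 168.43, 37.85 and 3.6 FPKM listed. Such closeness was not particular to this library. The difference was 0.0773 for graft day 14 replicate 3, 0.0796 for vein library 1 and 0.0821 for graft day 30 replicate 4. In control day 14 it was 0.0791 to 0.0823. CDH5 was 20.51 and 28.35 FPKM in replicates 2 and 3, against 14.47 and 10.29 FPKM in replicates 1 and 4. Neutrophil markers summed to 616 and 1020 FPKM in replicates 2 and 3, against 11.8 and 370 FPKM in replicates 1 and 4, and to 361 to 410 FPKM in control day 14. Macrophage markers summed to 32.1 and 43.2 FPKM, against 22.8 and 23.3 FPKM, and lymphatic markers to 120 and 217 FPKM, against 22.1 and 33.9 FPKM. The part of any of these in the levels of the members was not tested.

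**Figure D3:**
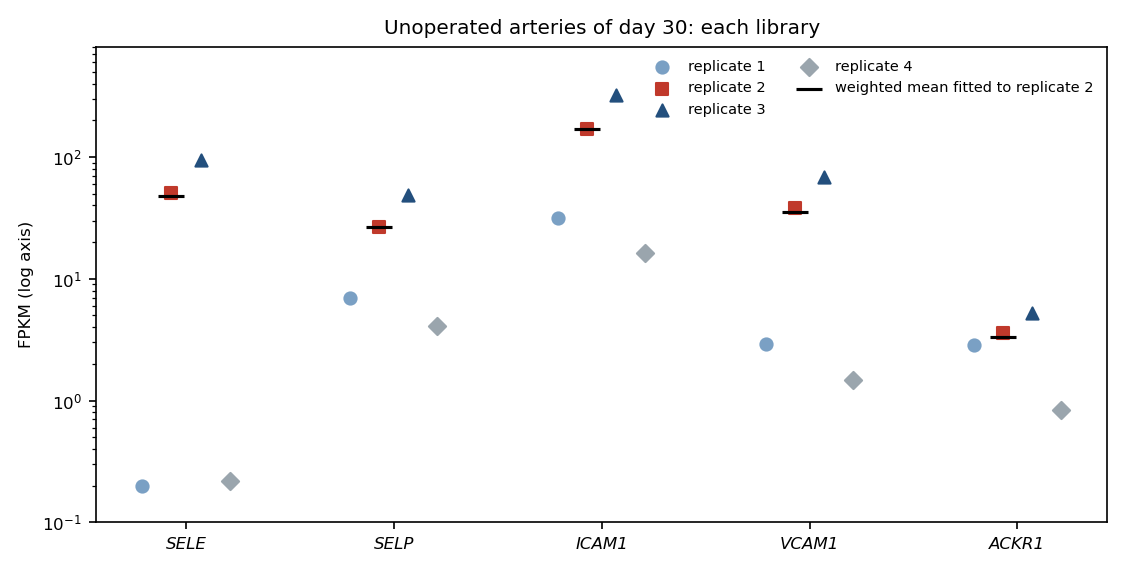
FPKM on a log axis of the 5 members in the 4 unoperated arteries of day 30, 1 symbol per replicate, with black dashes for the weighted mean of replicates 1, 3 and 4 fitted to replicate 2. The dash lies on or beside replicate 2 for all 5 genes, and replicates 2 and 3 lie above replicates 1 and 4 most widely for SELE.

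Profiles over all 20 libraries were compared by the root mean square difference of log2(FPKM + 1) after centring each gene, a measure that weighs the 2 high control libraries heavily. SELP and ICAM1 were each other's closest gene of 8656 (0.354, against a median of 1.19 and 1.25 over all genes). VCAM1 was the second closest gene to SELE (0.714) and to no other gene was SELE closer than to PTX3 (0.515), a soluble pattern recognition protein. Other genes nearest to SELE, SELP, ICAM1 and VCAM1 were IRF1 (an interferon response transcription factor), RNF122, RND1 and RIPK2 (a kinase of innate immune signalling). DUSP5 (a phosphatase of the ERK pathway), FOSL1 (a subunit of the AP-1 factor) and CXCL1 (a neutrophil chemokine) completed them. CXCL1 held 8.84 and 16.46 FPKM in control day 30 replicates 2 and 3, and 0.09 and 0.04 FPKM in replicates 1 and 4. ACKR1 ranked between 8444 and 8509 among the 8656 genes by closeness to each of the other 4 members. Its nearest genes were ENPP3 (0.537), LHX8 (0.654) and SHOX2 (0.657), the last 2 transcription factors of development, and all 3 averaged highest in vein, at 81.9, 21.4 and 54.7 FPKM.

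**Figure D4:**
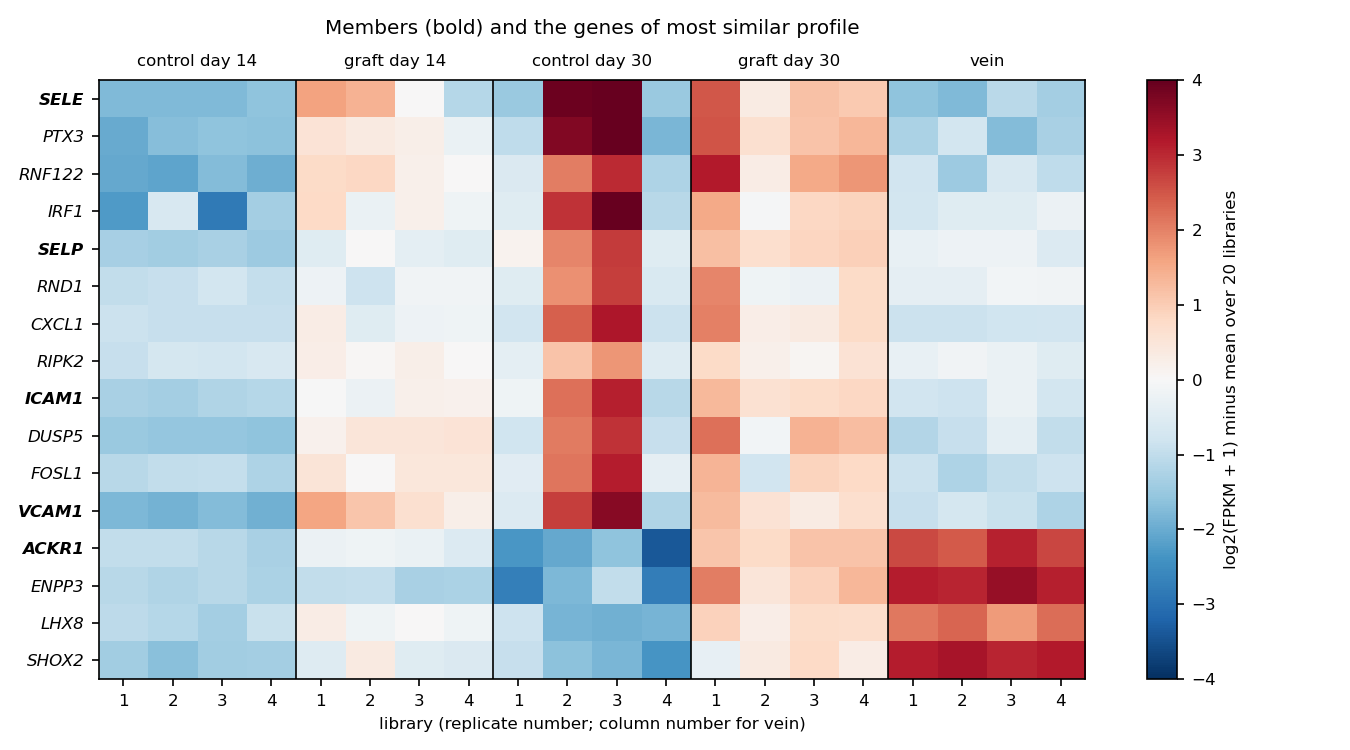
Rows are the 5 members (bold) and the 3 genes closest in profile to each, without repeats, columns the 20 libraries, and colour the log2(FPKM + 1) minus its mean over the libraries, limited to 4 in either direction. Rows around SELE, SELP, ICAM1 and VCAM1 are highest in control day 30 replicates 2 and 3, and rows around ACKR1 in the vein libraries.

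Genes that act around the members were counted in lists compiled with earlier results of these data known. Of 24 tested signal genes that act in inducing adhesion molecules (cytokines, receptors and signalling proteins), 15 rose and 2 fell in grafts of day 14. Their median log2 change was 1.33 against 0.26 over all genes, of which 36.5% rose and 17.0% fell. IFNGR2, a chain of the interferon gamma receptor, rose by 2.66 (SE 0.20) and TNFRSF1B, a TNF receptor, by 2.35 (SE 0.23). The receptor antagonist IL1RN rose as well, by 3.59 (SE 0.36). IL6 was listed at 0 in all controls of day 14 and held 111.14 and 224.63 FPKM in control day 30 replicates 2 and 3, against 1.08 and 0.13 FPKM in replicates 1 and 4, and was named after its values were seen. Of 29 factors of the NF-kB pathway and of endothelium, which include inhibitors and enzymes besides transcription factors, 14 rose and 1 fell. The inhibitor NFKBIE rose by 3.63 (SE 0.25) and FLI1, an ETS factor of endothelium, by 2.54 (SE 0.21). Of 16 leukocyte ligands and the enzymes that decorate them, 10 rose and 4 fell. ITGA4, the integrin chain that binds VCAM1, rose by 2.44 (SE 0.31) and B4GALT1, a galactosyltransferase used in selectin ligands, by 2.31 (SE 0.12), while ITGA9 fell by 1.18 (SE 0.21).

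Of 15 other adhesion genes of endothelium, 9 rose and 3 fell on day 14, led by CD93 (log2 change 3.85, SE 0.28), STAB1 (3.12, SE 0.23) and EMCN (endomucin, 2.70, SE 0.24). Of 17 chemokines and atypical receptors 10 rose and 1 fell, among them CCL14 (2.82, SE 0.19) and CCL4 (3.44, SE 0.49). Of 13 endothelial markers 10 rose and 1 fell, with a median of 1.72, which exceeds the median of 1.27 over the 5 members. On day 30 the counts higher and lower in grafts were 11 and 0 for signal genes and 8 and 2 for NF-kB and endothelial factors. They were 8 and 1 for ligands, 7 and 1 for other adhesion genes, 9 and 0 for chemokines and 11 and 0 for endothelial markers. Over all genes 26.0% were higher and 11.6% lower, so the share of NF-kB and endothelial factors called higher, 8 of 29, was near the background. Without control day 30 replicates 2 and 3 the counts were 12 and 0, 13 and 2, 7 and 1, 6 and 1, 11 and 0, and 9 and 0 in the same order, where 21.7% of genes were higher and 9.7% lower. On day 30 the median of the 13 endothelial markers was 1.97 with all libraries, beside -0.18 over the 5 members, and, without control day 30 replicates 2 and 3, 2.13 beside 1.58. In controls of day 30 against day 14 the counts were 3, 6, 0, 3, 4 and 3 higher in the same order, with none lower, where 6.28% of genes were called higher. Without replicates 2 and 3 they were 2, 3, 0, 3, 3 and 0 higher, with 1 signal gene lower, where 3.49% of genes were higher and 2.98% lower. Among these lists, CX3CL1, a chemokine that is itself an adhesion molecule, rose by 3.13 (SE 0.70, adjusted p = 0.00733 by limma), and CCL2, which recruits monocytes, by 4.27 (SE 0.73, adjusted p = 0.00109 by limma). Without replicates 2 and 3 these changes were 1.25 (adjusted p = 0.0338) and 2.41 (adjusted p = 0.0056). Both calls ended with control day 14 as 1 sample, as did nearly all calls of any gene in this comparison. Over all alternatives limma's adjusted p ran from 4.95e-06 to 1.0 for CX3CL1 and from 5.93e-07 to 0.857 for CCL2. Of 6 venous markers tested, 4 were higher and 2 lower in vein than in artery, where 37.1% of all genes were called in either direction. VWF (5.4, SE 0.19), EMCN (3.99, SE 0.21), NR2F2 (2.72, SE 0.37) and APLNR (1.34, SE 0.24) were higher, and POSTN (log2 change -1.18, SE 0.36) and NRP2 (-0.56, SE 0.18), both named after their values were seen, were lower. The call of NRP2 ended without control day 30 replicates 2 and 3 (adjusted p = 0.0598 by limma).

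Markers of other cells differed between grafts and controls, in both directions. Macrophage markers (16 of 18 in the table) summed to 17.4 to 19.5 FPKM in control day 14 and 293 to 686 FPKM in graft day 14. In graft day 30 they summed to 247 to 454 FPKM. Of 10 tested on day 14, 8 rose and 1 (CYBB, log2 change -0.70) fell, where 36.5% of all genes rose and 17.0% fell. Neutrophil markers (7 of 10) summed to 361 to 410 FPKM in control day 14 and 73.6 to 153 FPKM in graft day 14, with 0 of 4 tested called. Platelet markers (7 of 10) summed to 14.7 to 16.6 FPKM and 5.99 to 9.47 FPKM in these groups. T and B cell markers (13 of 16) summed to 0.47 to 2.69 FPKM in control day 14 and 50.9 to 87.1 FPKM in graft day 14. Markers of venous endothelium (9 of 9) summed to 35.6 to 40 FPKM in control day 14, 193 to 237 FPKM in graft day 14, 253 to 324 FPKM in graft day 30 and 537 to 685 FPKM in vein, with control day 30 at 41.1 to 49.7 FPKM. Of the vein sum 404.54 to 509.79 FPKM were VWF, and APLNR, POSTN and NRP2 were higher in grafts of day 30 than in vein, by 2.69, 3.12 and 1.38 on the log2 scale. Lymphatic markers (6 of 6) summed to 18.9 to 23.1 FPKM in control day 14 and 99 to 199 FPKM in graft day 14. The sums were 22.1 to 217 FPKM in control day 30, 349 to 425 FPKM in graft day 30 and 144 to 156 FPKM in vein. Their part in the levels of the 5 genes was not tested.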

How the data were processed

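Total RNA of rabbit vessels had been extracted with TRIzol and sequenced on a NovaSeq X Plus, per the labels' protocols. Per the submitters' processing notes, fastp, HISAT2, StringTie, RSEM and DESeq2 were used. Tool versions and the genome build are not given in the sources used here. FPKM were deposited by the authors in 1 table of 24964 transcript rows, which were added up to 23669 genes. The FPKM of a library added up to between 327806 and 671582.

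Groups came from the labels. The 4 vein columns could be tied to the group and not to single samples, and are called libraries 1 to 4. limma 3.58.1 (R 4.3.3) fitted a mean per group over 20 libraries to log2(FPKM + 1) with variances that follow the mean, for 8 contrasts, and p-values were adjusted over all genes tested. All tests were two-sided. Members were also tested by exact permutation in 35 tests without adjustment for their number, using Python 3.11.15 and numpy 2.4.6. The procedure was tested on simulated data. The members and gene lists were chosen with earlier results of these data known. Named beside the members were up to 4 genes per list with the smallest adjusted p, CDH5, TIE1, VWF and PECAM1, and the 3 closest genes in profile. Alternatives changed the pseudocount, filter, scaling, weights, libraries, transcript choice, replicate block and endothelial reference, and control day 30 replicates 2 and 3 were left out after the data were seen.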

Additional observations from a re-analysis of the deposited data

Results flagged for a closer look

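In the controls of day 14, SELE was listed at 0.12 FPKM in replicate 4 and at 0 in the other 3, so the gap to the next library is the whole range. In the grafts of day 30, ACKR1 in replicate 2 (31.14 FPKM) lay apart from the other 3 libraries, between 40.47 and 41.57 FPKM. The gap was 0.907 of the range, above Dixon's 95% critical value for 4 libraries. Of 25 groups examined, chance flags about 1 in 20. The pairs of high and low libraries in control day 30 cannot be found by this criterion, which looks for 1 library apart from 3.

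The effect of grafting on ACKR1 differed between the days, by 2.60 on the log2 scale (limma, adjusted p = 0.000258). On both days each graft held more than each control. The difference combines a higher level in grafts of day 30 with a lower level in controls of day 30.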

How the results depend on the processing

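Of 2041 values of single genes under the alternatives, 1876 kept their direction and their side of the threshold, 89 newly passed it, 39 no longer passed it and 37 changed sign, and in the values that changed side or sign the cause was not tested.

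Counts of the 5 members called are given in the order of the 8 comparisons: graft against control on day 14, on day 30, the difference of these, graft and then control of day 30 against day 14, vein against control, and grafts of day 14 and of day 30 against vein. The main counts were 2, 1, 1, 1, 4, 1, 1 and 1. Counts within 1.5 times of these are left out. The share of all genes called under these alternatives is not printed beside the counts, so a changed count need not be particular to the members. A pseudocount of 0.1 gave 4 for the first comparison, 2 for the difference, 2 for grafts of day 14 against vein and 3 for those of day 30. A filter at 5 FPKM gave 2 for the difference and 2 for both grafts against vein. Median-of-ratios scaling, TPM and quantile scaling each gave 1 on day 14, and TPM gave 2 for grafts of day 30 against vein. They moved the median of all genes by -0.28 (quantile, graft against control on day 14) to 0.2 (TPM, controls between the days). Fits to the groups compared gave 5 on day 14, 3 for grafts between the days, 0 for controls between the days, and 4 and 5 for grafts against vein. Library weights gave 5, 4, 5, 2, 5, 4, 3 and 5 calls, and group weights gave 4 for grafts of day 30 against vein. Control day 14 as 1 sample gives that group no spread of its own. The calls of members on day 14 and in controls between the days were then lost, and far fewer of all genes were called in both. Without the library closest to a weighted mean in each group other than control day 14 (graft day 14 replicate 3, control day 30 replicate 2, graft day 30 replicate 4 and vein library 1) 1 was called on day 14 and 2 in controls between the days. Both of these library changes together gave 0 on day 14, for the difference, and for grafts and for controls between the days. They also ended the call of ITGA9 on day 14 (adjusted p = 0.084, the highest over its alternatives). Without control day 30 replicates 2 and 3, a choice made after seeing the data, the counts were 5, 5, 1, 3, 2, 2, 4 and 5. Leaving out 1 library at a time gave 2 to 4 calls on day 14, 1 on day 30, 1 to 4 for the difference, 1 to 2 for grafts and 2 to 5 for controls between the days, 1 for vein against control, and 1 to 2 and 1 to 5 for grafts of day 14 and day 30 against vein.

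The following values changed sign. The change of SELE between graft and control on day 30 was 0.61 with a pseudocount of 0.1. Without the 4 libraries near a weighted mean, with or without control day 14 as 1 sample, the day 30 changes were 0.7 (SELE), 0.1 (SELP), 0.26 (ICAM1) and 0.1 (VCAM1). Without control day 30 replicates 2 and 3 they were 2.74, 1.1, 1.5 and 1.58. The difference between the days was then 0.55 for SELE, 0.07 for SELP and 0.23 for ICAM1, and vein against control was 0.15, 0.47, 0.29 and 0.41 for SELE, SELP, ICAM1 and VCAM1. VCAM1 between the grafts of both days was 0.03 with TPM and 0.06 with library weights. With 1 library left out at a time, the graft change on day 30 ran from -1.17 to 0.94 for SELE, -0.71 to 0.39 for SELP, -0.85 to 0.55 for ICAM1 and -1.24 to 0.37 for VCAM1. VCAM1 between the grafts of both days ran from -0.39 to 0.06. SELP ran from -0.44 to 0.11 in vein against control and from -0.14 to 0.02 in grafts of day 14 against vein.

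Relative to endothelial markers on day 14, the count of 0 became 1 with a pseudocount of 0.1, 3 with VWF or with the endothelial list as reference and 4 with CDH5. With CDH5 85.7% of all genes differed on day 14, and the shares for the other references are not given here. On day 30 CDH5 gave 4 in place of 2, VWF and CDH5 each gave 1 in place of 0 for grafts between the days, and CDH5 gave 2 in place of 4 for grafts of day 30 against vein. With a pseudocount of 0.1 the log2 change on day 14 was 4.77 for SELE and 3.78 for VCAM1. The exact tests were not repeated without single libraries, since 3 against 4 cannot reach a p below 0.0571. Libraries of equal replicate number did not deviate together (correlations of deviations from -0.18 to 0.13). This cannot show whether they came from the same rabbit. The number was also used as a block over the 16 artery libraries, with equal numbers of both days in 1 block. Such a block joins vessels of different days, so it cannot stand for a graft paired with its own opposite artery. With it, the call of ICAM1 in controls between the days was lost (limma, adjusted p = 0.0621), and the counts of calls were 2, 1, 1, 1 and 3 for the first 5 comparisons. A block of number within day was also fitted, and its counts are not given here. No paired analysis was possible for vein because the numbers of its columns could not be tied to single samples.

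FPKM hold no read numbers, so no counting error can be given. Levels of SELE and of VCAM1 in controls of day 14 were under 1 FPKM, where the pseudocount decides the size of a log2 change. The 4 libraries of control day 14 differ little from each other, and whether they are independent was not tested.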
